A study of Mus musculus with 3 samples.

Results

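The 6 mouse actin isoform genes Acta1, Acta2, Actb, Actc1, Actg1 and Actg2 were followed in cardiac myofibroblasts as the cells lost and regained contact with a stiff substrate. Myofibroblasts are fibroblasts that contract and lay down collagen after injury. The genes were taken by name, as every gene of the actin isoform family, with earlier results of these data known. They were 6 of 20660 genes that had a named probe on the arrays, and of these genes 15393 had a signal well above background on at least 1 array. Their RNA was read by 10 of 55681 probes and 19 of 59305 spots: Actg1 had 5 probes, Acta2 had 1 probe printed as 10 spots, and each of the other genes had 1 probe in 1 spot.

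Male C57BL/6J mice had the left anterior descending artery of the heart ligated permanently, and the infarcted hearts were digested 3 days later. The age tag of the samples reads 8 weeks, while the protocol gives 10 weeks at ligation. Cells that attached to plastic overnight were depleted of cells carrying CD45, a leukocyte surface protein, and all 3 groups shared this origin. The groups were adherent cells kept on plastic plates, non-adherent cells moved into suspension, and re-adherent cells brought back from suspension onto plates. Each group was 1 RNA pool from several hearts on 1 array, so there was no replicate error and no test between groups. According to the study's methods the states followed each other in culture and many cells died in suspension. State, time in culture and cell survival therefore cannot be told apart.

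Actin is the protein of the thin filament. Actb and Actg1 encode the cytoplasmic β- and γ-actins found in nearly all cells. Acta2 and Actg2 encode the smooth muscle α- and γ-actins, Acta1 the skeletal muscle α-actin and Actc1 the cardiac α-actin. Smooth muscle α-actin in stress fibres is the usual marker of a fibroblast that has become a myofibroblast. Actin genes are classical targets of serum response factor (SRF), which binds a DNA sequence called the CArG box and works with the myocardin-related transcription factors. These cofactors are held back by unpolymerised actin.

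The promoters of Acta2, Acta1, Actc1 and Actg1, the 4 genes matched in the RefSeq promoter table, are shown with SRF's binding sequence marked. They have coordinates in GRCm38.p6, and run 5′ to 3′ on the minus strand from 250 bases before to 50 bases after the transcription start. For Acta2 the start used lies inside the locus given below, which ends at 34255585. For the others it lies at the locus end. Capitals mark CArG boxes (2 C, 6 A or T and 2 G), including boxes with 1 C or G among the 6 central bases.
Acta2 promoter, chr19:34255324-34255623: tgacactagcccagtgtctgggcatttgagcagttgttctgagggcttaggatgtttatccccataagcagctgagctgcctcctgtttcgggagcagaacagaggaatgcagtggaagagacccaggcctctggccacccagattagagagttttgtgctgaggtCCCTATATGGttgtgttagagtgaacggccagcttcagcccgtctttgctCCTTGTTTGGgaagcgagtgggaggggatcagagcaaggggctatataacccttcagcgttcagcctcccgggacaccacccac
Acta1 promoter, chr8:123894726-123895025: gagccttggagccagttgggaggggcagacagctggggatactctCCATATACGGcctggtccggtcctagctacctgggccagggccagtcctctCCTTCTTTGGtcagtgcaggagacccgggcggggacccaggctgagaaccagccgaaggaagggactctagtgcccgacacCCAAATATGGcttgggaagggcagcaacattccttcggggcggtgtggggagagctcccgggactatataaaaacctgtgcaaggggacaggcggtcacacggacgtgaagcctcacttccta
Actc1 promoter, chr2:114052826-114053125: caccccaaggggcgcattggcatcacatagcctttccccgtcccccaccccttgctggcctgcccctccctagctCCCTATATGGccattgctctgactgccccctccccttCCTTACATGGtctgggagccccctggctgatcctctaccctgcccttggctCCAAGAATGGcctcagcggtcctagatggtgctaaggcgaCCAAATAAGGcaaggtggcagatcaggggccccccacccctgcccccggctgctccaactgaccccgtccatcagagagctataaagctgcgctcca
Actg1 promoter, chr11:120348446-120348745: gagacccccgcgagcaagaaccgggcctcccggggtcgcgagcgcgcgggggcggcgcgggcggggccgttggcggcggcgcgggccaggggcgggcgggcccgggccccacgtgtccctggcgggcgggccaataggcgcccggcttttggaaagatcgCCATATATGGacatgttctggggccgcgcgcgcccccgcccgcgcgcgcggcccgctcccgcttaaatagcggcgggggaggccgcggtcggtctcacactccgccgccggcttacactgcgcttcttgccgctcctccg
Promoters of Actb and Actg2 were not analysed here.

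Exact CArG boxes numbered 1 in Acta1, 1 in Actc1 and 1 in Actg1, while the Acta2 promoter held 0. Boxes with 1 C or G in the centre numbered 2 in Acta2, 2 in Acta1, 3 in Actc1 and 0 in Actg1. Among 32851 RefSeq promoters of the same length, searched on both strands, 1.63% held an exact box, 9.98% held a box with up to 1 C or G in its centre, and 0.822% held at least 2 of the latter kind, as the 3 muscle actin promoters did. The motif CATTCC, bound by TEAD factors, was found once in Acta2 and once in Acta1 and was present in 14.7% of all promoters. Exact boxes also count as boxes with up to 1 C or G, and no CATTCC match overlapped a box in these 4 promoters. A match describes the letters only.

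The labelled cell type was checked against marker genes. All 9 fibroblast markers were well above background on all 3 arrays, with summed scaled levels of 1113 in adherent, 841 in non-adherent and 841 in re-adherent cells. In suspension 3 of them were over 2-fold lower, Thy1 at -3.50, Tcf21 at -1.75 and Col1a2 at -1.01, and 1 was higher, Dcn at 1.69, which was at -3.20 on re-adhesion. Of all genes 14.7% were over 2-fold lower and 17.2% higher in suspension. Col1a2 alone made up 31.4% to 49.9% of the sums. Summed levels add the signals of a list after division by each array's 75th percentile. Between 53.9% and 59.9% of the non-control spots were well above background, and 0 of them were saturated.

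Acta2, on chromosome 19 at 34240336-34255585, was read by probe A_52_P420504. Its processed signal, averaged over spots, was 435300 in adherent, 4690 in non-adherent and 345278 in re-adherent cells. Cells in suspension thus had 1.01% of the adherent level after scaling and re-adherent cells had 95.4%. On the log2 scale, relative to each array's 75th percentile, the Acta2 difference was -6.64 from adherent to suspension, 6.57 from suspension to re-adhesion and -0.07 from adherent to re-adherent, each with a software error of 0.20. This error is the scanner software's estimate for the spots and covers no difference between cultures.

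The 10 spots of the Acta2 probe gave a technical spread. After removal of 1 flagged spot, 9 spots on the adherent array had a log2 scaled level of 9.38 ± 0.07 (SD, n = 9 spots). The 10 spots on the non-adherent array averaged 2.75 ± 0.09 (SD) and those on the re-adherent array 9.32 ± 0.05 (SD). Signals of single Acta2 spots ran from 404852 through a median of 428957 to 485396 in adherent cells. They ran from 4162 through 4655 to 5127 in suspension and from 331862 through 344003 to 364596 after re-adhesion. Spots of the suspended cells did not overlap with those of either attached state, whereas on the scaled axis the spots of the attached states overlapped, at 9.28 to 9.54 and 9.26 to 9.40. Compared at the same position, the spots gave falls of -6.80 to -6.45 in suspension and rises of 6.38 to 6.74 on re-adhesion. Spots of 1 array share 1 RNA pool and are not replicates of a culture. Among 265 probes that were likewise printed 10 times and were well above background on all arrays, Acta2 had the 2nd largest fall and the 2nd largest rise.

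**Figure D1:**
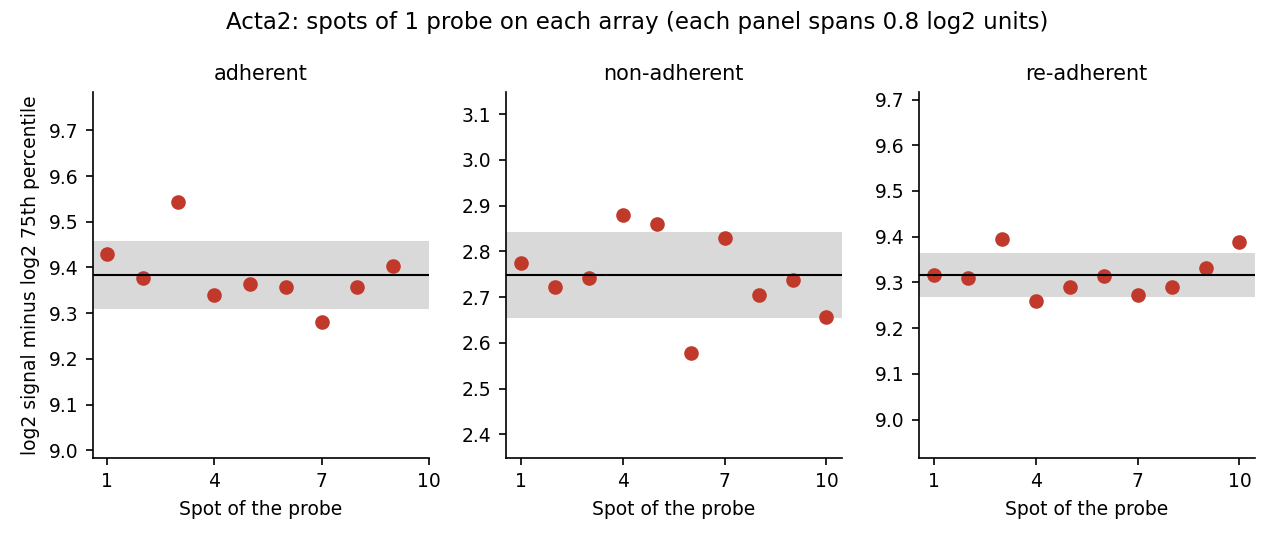
Log2 scaled signal of each spot of the Acta2 probe on each array, with a panel per state and 0.8 log2 units in height for each panel, with the mean as a line and ±1 SD of the spots as a grey band. The spots lie around 9.38, 2.75 and 9.32, with an SD of at most 0.09.

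Actg2, on chromosome 6 at 83512909-83536251, was read by probe A_55_P1963807. Its signal was 17282 in adherent, 30.6 in non-adherent and 5916 in re-adherent cells, well above background on every array. It was highest in adherent cells and near the dim end of the array in suspension. The Actg2 differences were -9.24 ± 0.26 (software error) in suspension, a 605-fold fall, and 7.96 ± 0.26 on re-adhesion, a 249-fold rise. The level after re-adhesion was 41.2% of the adherent one, at a difference of -1.28 ± 0.20. Actg2 was the only one of the 3 muscle actins lost in suspension that lay over 2-fold below its adherent level after re-adhesion.

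Acta1, on chromosome 8 at 123891758-123894775, was read by probe A_51_P246854. The Acta1 signal was 23014.5 in adherent, 154 in non-adherent and 17023 in re-adherent cells. By this 1 probe the skeletal muscle isoform had the same order of states as the smooth muscle isoforms. Actin isoforms are close in sequence, and probe sequences were not available here. Whether a probe also caught RNA of a brighter isoform such as Acta2 was not tested, so the 3 muscle actins may not be independent readings. The differences for Acta1 were -7.32 ± 0.21 (software error) in suspension, a 160-fold fall, 7.15 ± 0.21 on re-adhesion, a 142-fold rise, and -0.17 ± 0.20 between re-adherent and adherent cells. Suspended cells had 0.626% and re-adherent cells 88.9% of the adherent Acta1 level.

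Actc1, on chromosome 2 at 114047282-114052875, went another way at a far lower signal. Probe A_55_P2040951 read 35.4 in adherent cells, 63.6 in suspension and 4.59 after re-adhesion, where it was not well above background. The Actc1 difference in suspension was 0.75 ± 0.28 (software error). Set against the detection floor after re-adhesion, that is the dimmest detected spot there, Actc1 was at least 2.69-fold higher in suspension and at least 1.60-fold higher in adherent cells than after re-adhesion. Without that floor the measured difference on re-adhesion was -3.43 ± 1.46. Normexp background correction gave smaller differences than these bounds, -0.59 on re-adhesion and -0.35 between the attached states. The size of the Actc1 difference is therefore poorly fixed.

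Actb, on chromosome 5 at 142903115-142907976, had signals of 542171, 435857 and 526639 in adherent, non-adherent and re-adherent cells for probe A_55_P2112737. The Actb level of suspended cells was 75.1% and that of re-adherent cells 117% of the adherent level. The differences of Actb were -0.41 in suspension, 0.64 on re-adhesion and 0.22 between the attached states, each ± 0.20 (software error). The median raw signal of the Actb spot stood at 74.8%, 61.3% and 71.2% of the value at which a spot saturates.

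Actg1, on chromosome 11 at 120345687-120348495, was read by 5 probes that did not give 1 value. Probes A_52_P72237, A_55_P1985984 and A_55_P2008907 were over 2-fold lower in suspension, at -1.39, -1.17 and -1.05 on the log2 scale. Probes A_55_P2114993 and A_55_P1970597 were within 2-fold, at -0.39 and -0.30. All 5 probes were lower in suspension and higher on re-adhesion, by 1.57, 1.42, 1.15, 0.63 and 0.52 in the same order. Between re-adherent and adherent cells they lay close together, from 0.10 to 0.26.

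The SD over the 5 Actg1 probes was 0.49 in suspension, 0.47 on re-adhesion and 0.06 between the attached states. Among 3482 genes with several probes the median SD was 0.17, 0.18 and 0.11, and 16.4%, 19.6% and 70.2% of these genes had a larger SD than Actg1. Among the 20 genes with at least 5 probes the median SD was 0.28, 0.38 and 0.13, and 2, 7 and 16 of them had a larger SD than Actg1. The brightest Actg1 probe, A_55_P1970597, read 401146, 348205 and 388712, and by the rule for all genes it stood for the gene. The dimmest, A_52_P72237, read 62564, 25502 and 58895 and had the largest differences in suspension and on re-adhesion, but not between the attached states. Raw signals of these 5 probes in adherent cells ranged from 6.81% to 61.7% of the saturating value. Whether signal range or the targeted transcript region set the difference between Actg1 probes was not tested.

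**Figure D2:**
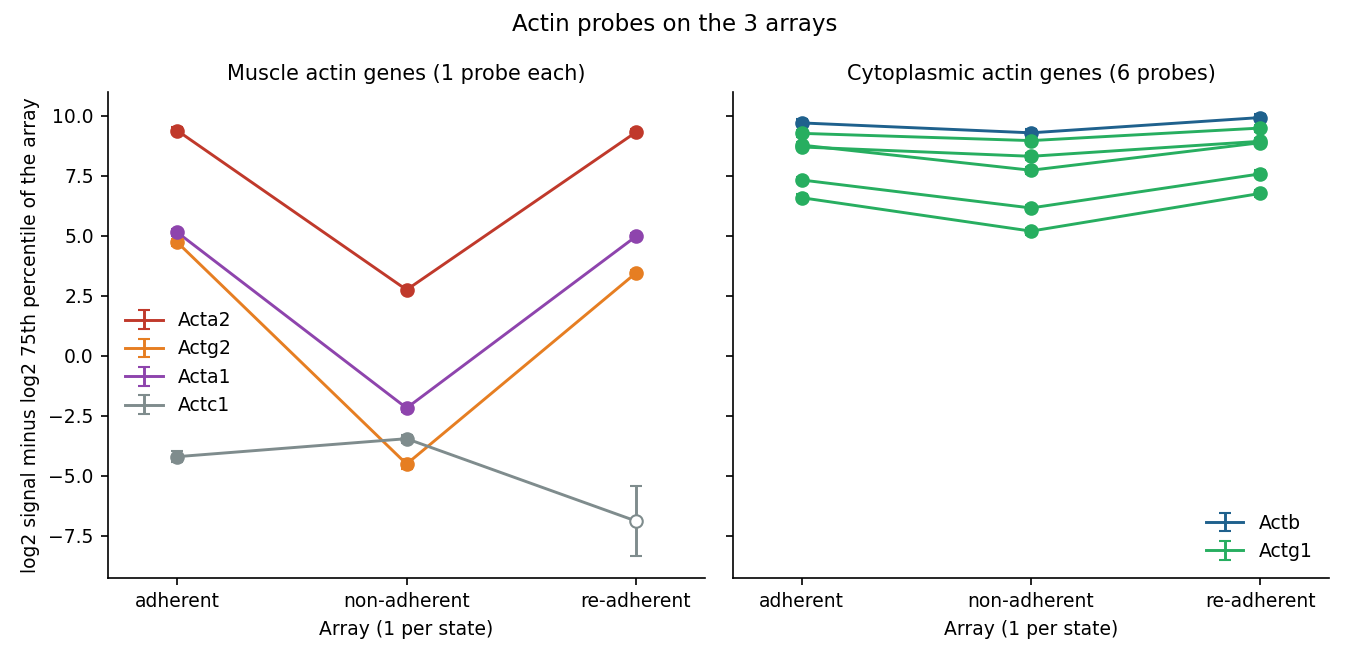
Log2 signal minus each array's 75th percentile for every actin probe in the order adherent, non-adherent, re-adherent, with muscle actins on the left and the 6 probes of Actb and Actg1 on the right. Error bars are the scanner software's error and the open circle is not well above background. Lines of Acta2, Actg2 and Acta1 reach -6.64 to -9.24 in suspension relative to adherent cells and those of Actb and Actg1 -0.30 to -1.39, and heights of different probes are not comparable.

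Among all 15393 measured genes, 14.7% fell and 17.2% rose by more than 2-fold between adherent cells and suspension. Of the 6 actin genes 3 were over 2-fold lower (Acta2, Actg2 and Acta1) and 0 were higher. On re-adhesion 15.6% of all genes were over 2-fold higher and 16.3% over 2-fold lower. The same 3 actin genes were higher, and Actc1 was lower. Between re-adherent and adherent cells 4.9% of all genes were over 2-fold lower and 4.84% higher, and of the actin genes Actg2 and, by its measured value, Actc1 were lower. Both steps share the non-adherent array, so a rise on re-adhesion is not independent of a fall in suspension.

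A fall of over 16-fold in suspension was seen in 1.03% of genes, a rise of over 16-fold on re-adhesion in 1.56%, and both in 0.806%, or 124 genes. Acta2, Actg2 and Acta1 were among those 124. Among the 13994 genes well above background in both adherent and suspended cells, Actg2 had the 2nd, Acta1 the 5th and Acta2 the 11th largest fall. Among 13563 genes measured on both arrays of the re-adhesion step, they had the 4th, 9th and 14th largest rise. Lower than Actb in suspension were 32.3% of genes, and lower than the brightest Actg1 probe 38.0%. By the median of its 5 probes, -1.05, Actg1 would pass 2-fold in suspension, as it would on re-adhesion at 1.15.

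**Figure D3:**
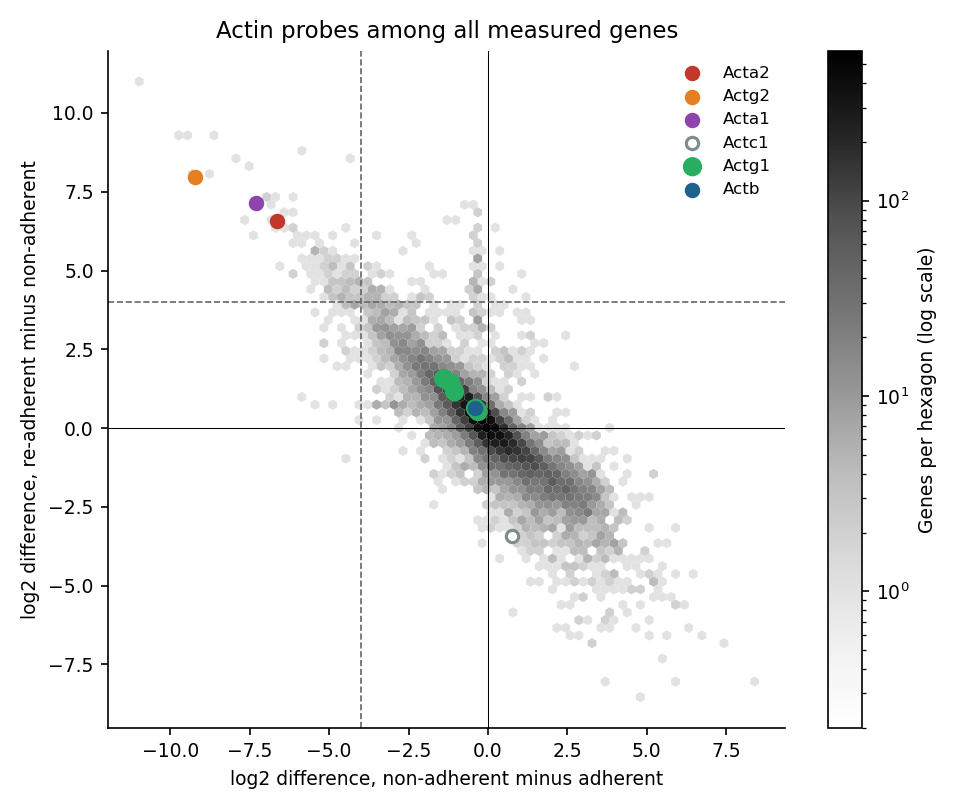
Log2 difference on re-adhesion (re-adherent minus non-adherent, vertical) against that in suspension (non-adherent minus adherent, horizontal) for 15393 genes as grey hexagons and for each actin probe as a coloured point, with dashed lines at 16-fold. Both axes share the non-adherent array, so the downward slope is partly built in. Acta2, Actg2 and Acta1 lie beyond both lines, Actb and the brighter Actg1 probes near the centre, and Actc1 (open, not well above background after re-adhesion) to the lower right.

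The isoforms were compared within the same arrays by subtracting the change of each cytoplasmic actin probe from that of each muscle actin. In suspension Acta2 changed by -5.24 to -6.33, Actg2 by -7.85 to -8.94 and Acta1 by -5.93 to -7.02 relative to the 6 cytoplasmic probes. Actc1 changed by 1.05 to 2.14 relative to them. On re-adhesion the relative rise was 5.0 to 6.05 for Acta2, 6.39 to 7.44 for Actg2 and 5.58 to 6.63 for Acta1. Each of these relative differences was larger than the software errors of the probes. Relative to the same probes, the difference left between re-adherent and adherent cells was -0.17 to -0.32 for Acta2, -0.27 to -0.42 for Acta1 and -1.38 to -1.54 for Actg2.

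Genes whose centred levels over the 3 arrays lay closest to each actin gene were sought among 13475 genes well above background on every array. For Acta2 they included Myl9 at a Euclidean distance of 0.116 log2 units and Asb5 at 0.332. For Acta1 they included Ddah1 at 0.280 and Scel at 0.402. Actg2 had 1 gene within 0.5, Cnn1 at 0.375, and then Acta1 at 1.36 and Slc1a6 at 1.37. Within 0.5 lay 5 genes for Acta2, 4 for Acta1, 1 for Actg2 and 9 for Actc1. Such numbers follow the size of a gene's change, because few genes changed as much as Acta2, Acta1 and Actg2. Within the same distance lay 5369 genes for Actb, with Sgsm1, Nkain2 and Hnrnpc closest, and 5788 for Actg1, with Tpd52l2, Mrps28 and Ost4 closest. The closest to Actc1 were Lrrc17, Tspan18 and Ackr3, but there the re-adherent value of Actc1 was below the detection level. With 3 arrays such distances are a description.

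Smooth muscle contractile partners, the proteins that work with actin in smooth muscle, were well above background on at least 1 array for 15 of 15 listed genes. In suspension 13 of the 15 were over 2-fold lower and 0 higher, beside 14.7% and 17.2% of all genes. The median log2 difference was -3.40 beside -0.07 over all genes. On re-adhesion 13 were over 2-fold higher and 0 lower, beside 15.6% and 16.3% of all genes, with a median of 2.87 beside 0.08. Cnn1 (calponin) differed by -8.80 and 7.99 over the steps, Myl9 (a myosin regulatory light chain) by -6.80 and 6.64, Tagln (transgelin) by -5.98 and 6.18, and Tpm2 (β-tropomyosin) by -5.49 and 5.50. Myl6, a myosin light chain also found in non-muscle cells, stayed within 2-fold in suspension at -0.87.

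Between re-adherent and adherent cells 3 of 15 were over 2-fold lower, beside 4.9% of all genes. These 3 were Myh11 at -2.40, Mylk at -1.20 and Synpo2 at -1.16. The brightest Synpo2 probe was at -0.38 in suspension and -0.78 on re-adhesion, while another Synpo2 probe was at -3.28 and 2.24. Myh11, the smooth muscle myosin heavy chain, was not well above background in suspension, where it was at least 16.3-fold lower than in adherent cells, and it was at least 3.09-fold higher after re-adhesion. Cnn1 differed by -0.81 between the attached states, and Actg2 by -1.28.

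Of the sarcomere partners, the proteins that work with actin in heart and skeletal muscle, 14 of 18 were measured. In suspension 4 were over 2-fold lower and 4 higher, beside 14.7% and 17.2% of all genes, with a median of 0.39. On re-adhesion 3 were lower and 5 higher, beside 16.3% and 15.6% of all genes, with a median of -0.02. Some of these calls rest on signals not well above background, such as that of Myl7, at least 1.17-fold higher in suspension. Actn2, Ttn, Nebl and Lmod2 were not well above background on any array. Signals of the heart muscle myosin Myh6 were dim at 36.4, 75.6 and 26.9 in adherent, suspended and re-adherent cells.

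Markers of other cells moved as follows beside the actin genes. Over all genes, 14.7% were over 2-fold lower and 17.2% higher in suspension. On re-adhesion these shares were 16.3% and 15.6%, and between re-adherent and adherent cells 4.9% and 4.84%. Of 9 cardiomyocyte markers 5 were measured, with summed scaled levels of 1.12, 1.72 and 3.29 in adherent, suspended and re-adherent cells. Tnnt2 made up 79.7% to 92.5% of these sums, and on re-adhesion 1 marker was over 2-fold higher (Tnnt2) and 2 were lower (Myh6 at -1.13 and Tnni3, at least 2.99-fold). Actn2, Ttn, Ryr2 and Pln were not well above background on any array. Of 9 skeletal muscle markers 3 were measured, with sums of 0.79, 3.63 and 1.56, of which Tnni2 made up 87.7% to 98.4%. Myh1 went the other way, at least 1.96-fold lower in suspension and at least 4.79-fold higher on re-adhesion, Tnnt3 was at -0.12 and -0.05, and the defining genes Ckm, Myog and Myod1 were not well above background on any array. All 8 smooth muscle and pericyte markers were measured, with sums of 28.6, 10.5 and 23.4, of which Smtn made up 63.5% to 90.7%. In suspension 5 of the 8 were over 2-fold lower and 1 was higher (Kcnj8, at least 4.10-fold). Rgs5 was at 0.79 and Notch3 at 0.62. By measured values 3 of the 8 were over 2-fold lower in re-adherent than in adherent cells. Myh11, Smtn, Lmod1 and Des, all among the 5, are also listed as smooth muscle contractile partners and are not separate readings. Likewise all 5 measured cardiomyocyte markers are also listed as sarcomere partners, and Tpm1 stands in both partner lists. Of 10 macrophage markers 9 were measured and 8 were over 2-fold higher in suspension, with a median of 2.61. Sums over the 9 were 143, 701 and 242. The remaining marker, Itgam, was at -0.84 by its brightest probe, while its 3 probes ran from -0.84 to 1.96. On re-adhesion 7 of the 9 were over 2-fold lower and 1 was higher, Cx3cr1 at 1.95. Between re-adherent and adherent cells 0 were over 2-fold lower and 3 higher, Cx3cr1 at 4.62, Cd14 at 1.38 and Csf1r at 1.37. Ptprc, the gene of CD45, differed by 2.68 in suspension. All 8 endothelial markers were measured: 5 were over 2-fold higher in suspension and 7 were over 2-fold lower on re-adhesion. By measured values 5 of the 8 were over 2-fold lower in re-adherent than in adherent cells, with Cdh5 at -3.18. Tie1, among these 5, was not well above background after re-adhesion and was at least 1.71-fold lower. Sums over the 8 endothelial markers were 23.3, 35.4 and 22.2. These sums hide the falls because the brightest Kdr probe made up 62.2% of the adherent and 85.9% of the re-adherent sum. Another Kdr probe fell by 3.18 on re-adhesion. The part of these cells in the actin differences was not tested, and in pooled RNA fewer cells of a type and less RNA per cell cannot be told apart.

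The regulators list held SRF, its cofactors and other factors known to act on actin genes, and 17 of 17 were measured. In suspension 4 were over 2-fold lower and 3 were higher, beside 14.7% and 17.2% of all genes, and the median was -0.43 beside -0.07 over all genes. Srf itself differed by -1.66 in suspension and 1.68 on re-adhesion. Tead1, a factor that binds CATTCC, differed by -3.72 and 3.34. Mrtfa, the actin-sensing SRF cofactor, stayed within 2-fold at -0.37 and 0.29. Myocd and Nkx2-5 were not well above background in suspension, where they were at least 2.47-fold and at least 2.97-fold lower than in adherent cells.

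Of the myocyte enhancer factors, Mef2a was at 1.31 and Mef2c at 1.88 in suspension and they were at -1.29 and -1.35 on re-adhesion. Mef2d had the opposite signs within 2-fold, at -0.55 and 0.75. Mrtfb was over 2-fold higher in suspension by its brightest probe, at 1.08, but its 3 probes ran from -0.46 to 1.08. On re-adhesion 5 regulators were over 2-fold higher and 3 lower, beside 15.6% and 16.3% of all genes, with a median of 0.60. Between re-adherent and adherent cells 0 of 17 were over 2-fold apart, beside 4.9% of all genes lower and 4.84% higher.

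Genes for folding and maturation of actin were measured for 17 of 18 listed. New actin is delivered by prefoldin to the chaperonin CCT, which folds it. In suspension 6 were over 2-fold lower and 1 was higher, beside 14.7% and 17.2% of all genes, with a median of -0.91 beside -0.07 over all genes. All 8 chaperonin subunit genes (Tcp1 and the Cct genes) lay below 0, from -1.40 to -0.71, and all 8 lay between 0.91 and 1.49 on re-adhesion. The gene that was higher in suspension was Naa80, the acetyltransferase of actin's N-terminus, at 1.41. Setd3, which methylates a histidine of actin, was at 0.16. On re-adhesion 9 of 17 were over 2-fold higher and 0 lower, beside 15.6% and 16.3% of all genes, with a median of 1.01.

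Actin-related and actin-like genes, which share the actin fold but build other complexes, showed little of this. Of 22 listed genes 13 were measured. In suspension 1 was over 2-fold lower, Actr1b of the dynactin complex at -1.03, and 0 were higher, beside 14.7% and 17.2% of all genes. The median was -0.03. Actr2 and Actr3, the actin-related subunits of the complex that starts branched filaments, were at 0.71 and -0.17. On re-adhesion Actr1b, at 1.36, was the only listed gene over 2-fold higher, beside 15.6% of all genes.

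**Figure D4:**
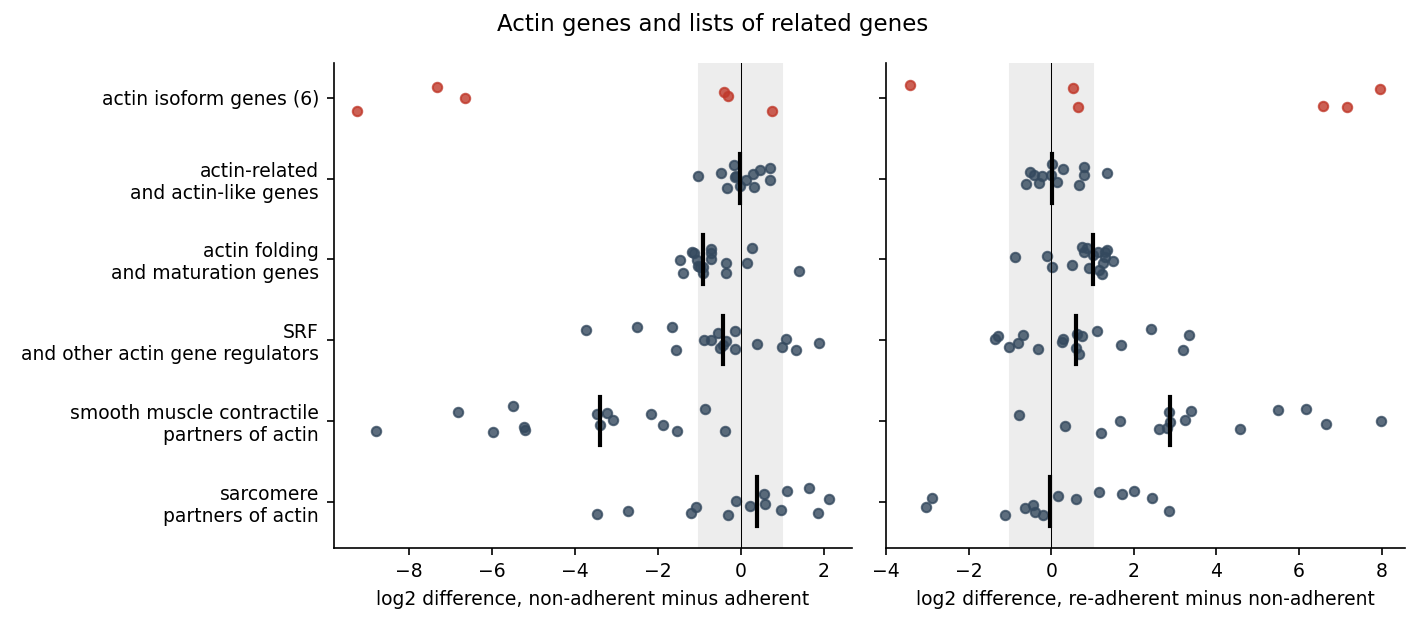
Log2 differences in suspension (non-adherent minus adherent) and on re-adhesion (re-adherent minus non-adherent) for the 6 actin genes and the measured members of 5 gene lists, 1 point per gene, with the median as a black bar and differences within 2-fold as a grey band. The smooth muscle contractile partners have the lowest list median in suspension, -3.40, and the highest on re-adhesion, 2.87.

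The actin differences were recomputed under 10 other ways of processing the signals. Acta2 ranged from -7.00 to -6.54 in suspension and from 6.20 to 6.58 on re-adhesion. Actg2 ranged from -9.61 to -7.46 and from 6.17 to 7.97, and Acta1 from -7.69 to -6.68 and from 6.39 to 7.16. These 3 genes passed 16-fold on both steps under 10 of 10 alternatives. Not all of these could alter the differences: raising low signals to a floor and averaging over probes left these 3 genes unchanged. The authors' values and the scalings other than quantile normalization shifted all genes of an array together. For Actb and Actg1 the differences were small enough to depend on the scaling. Actb ranged from -0.78 to -0.23 in suspension and from 0.27 to 0.65 on re-adhesion, and between the attached states it changed sign without scaling and with spike-in scaling. Actg1 ranged from -0.86 to 0.01 in suspension and from -0.02 to 1.06 on re-adhesion, and it changed sign on both steps with quantile normalization.

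**Figure D5:**
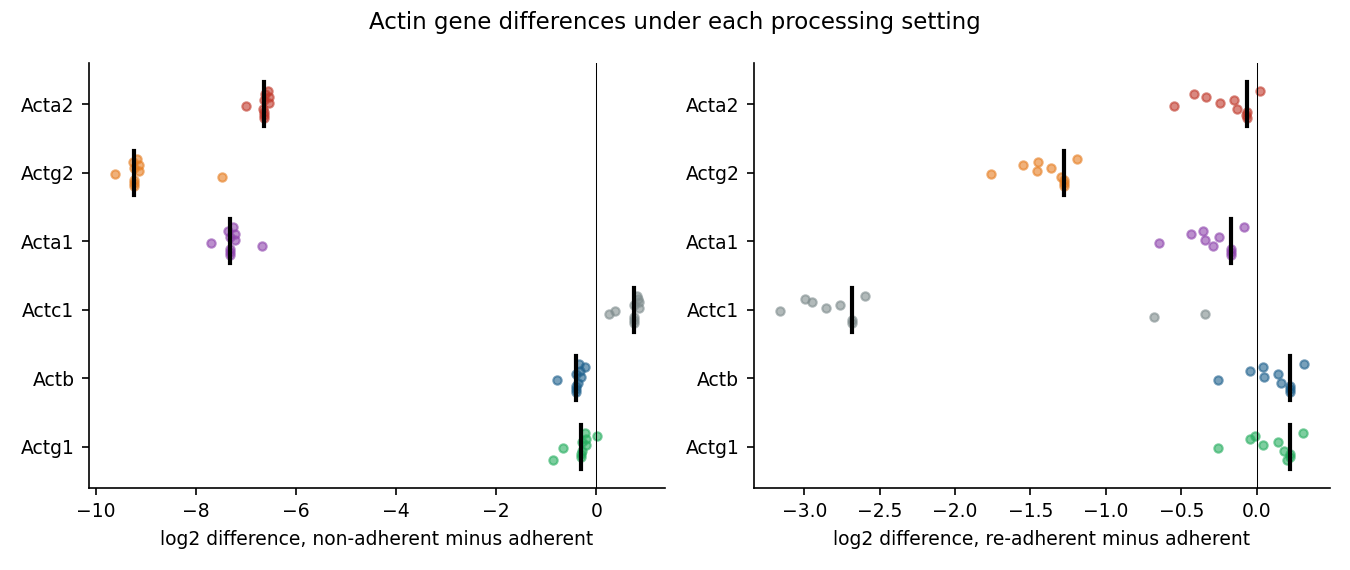
Log2 differences in suspension (non-adherent minus adherent) and between the attached states (re-adherent minus adherent) for each actin gene, with the reported value as a black bar and 10 alternative ways of processing as dots. Dots of Acta2, Actg2 and Acta1 in suspension lie at -6.54 or lower, and those of Actb and Actg1 at -0.86 or higher.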

How the data were processed

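RNA of each pool was labelled with Cy3 from 0.1 µg and hybridised to 1-colour Agilent SurePrint G3 mouse arrays. The deposited intensity values were processed signals of each spot, background-corrected by the authors with Agilent Feature Extraction 10.10.1.1. The authors' table of scaled intensity, whose normalisation is not given in the sources used here, served as an alternative after log2 transformation.

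Control spots and spots flagged as non-uniform or outlying were left out. Signals were divided by each array's 75th percentile (651, 697 and 541), log2-transformed and averaged over the spots of a probe. A gene was represented by its brightest probe among those well above background on at least 1 array. Names came from RefSeq (GRCm38.p6), which matched 21465 of 37881 transcript names and named 27235 probes. A probe not well above background was given as a bound against the lowest signal well above background. With 1 array per group, genes were described past 2-fold, and past 16-fold because the study selected genes in that way. Named genes were the 6 actin genes with every probe, members of the gene and marker lists, and the 3 genes nearest to each actin gene, of which some are not reported here. The members and lists were chosen with earlier results of these data known.

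Alternatives were quantile, median, detected-probe, spike-in and no scaling, the deposited normalised values, normexp correction (limma 3.58.1 in R 4.3.3, offset 50, on the median in place of the mean signal), a floor at the lowest detected signal, flagged spots kept, the mean over probes, and filters on detection. Scripts in Python 3.11.15 were tested on simulated data. The number of arrays limits the precision.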

Additional observations from a re-analysis of the deposited data

How the results depend on the processing

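Samples could not be paired and no replicate could be left out, because there was 1 array in each group. With 1 RNA pool per state, a difference between states, between cultures and between hybridisations cannot be told apart. The software error is an estimate for spots only. It was 0.144 on every array for Actb and each Actg1 probe, while the SD of the Acta2 spots was at most 0.09. Actc1 was limited by signal over background. Of 180 actin differences recomputed under 10 alternatives, 137 moved by less than the software error or kept their value. A further 36 moved by more and kept their sign, and 7 moved by more and changed sign. Among the 137, Acta2 between the attached states also changed sign, from -0.07 to 0.02 with median scaling. Scaling shifted all genes together: spike-in scaling with the E1A controls put the median of all genes at -0.44 in suspension and -0.41 between re-adherent and adherent cells, and no scaling put it at -0.28 on re-adhesion. Subtracting that median removes a shift common to all genes by construction, and the values then differed with the other alternatives only: Actb was at -0.35 to -0.22 in suspension and at 0.29 to 0.57 on re-adhesion.

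In suspension, E1A scaling gave -7.69 for Acta1, -7.00 for Acta2, -9.61 for Actg2, -0.78 for Actb, -0.67 for Actg1 and 0.38 for Actc1. Normexp gave -6.68 for Acta1, -7.46 for Actg2 and 0.25 for Actc1. Actg1 was at -0.86 as the mean over its probes and at 0.014 with quantile normalization, a change of sign. On re-adhesion, no scaling gave 6.79 for Acta1, 6.20 for Acta2, 7.60 for Actg2, 0.27 for Actb and 0.16 for Actg1. The authors' values gave 6.88 for Acta1, 6.29 for Acta2, 7.68 for Actg2, 0.36 for Actb and 0.25 for Actg1. Normexp gave 6.39 for Acta1, 6.17 for Actg2 and -0.59 for Actc1, and a floor gave -1.43 for Actc1. Quantile normalization gave 6.20 for Acta2, 0.28 for Actb and -0.023 for Actg1, the last a change of sign, and the mean over probes gave 1.06 for Actg1.

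Between re-adherent and adherent cells, no scaling gave -0.44 for Acta1, -0.33 for Acta2 and -1.55 for Actg2, and turned Actb to -0.042 and Actg1 to -0.045. E1A scaling gave -0.65 for Acta1, -0.55 for Acta2 and -1.76 for Actg2, and turned Actb to -0.26 and Actg1 to -0.26. Quantile normalization gave -0.42 for Acta2 and turned Actg1 to -0.0090. Actc1 was at -0.35 with normexp and at -0.68 with a floor. The cause was not tested.

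In suspension, genes over 16-fold lower numbered 158, and 58 with normexp, 104 with a floor and 82 among genes well above background on all 3 arrays, and those over 16-fold higher 84, and 14, 53 and 33. On re-adhesion the counts were 240 higher, and 62, 143 and 102, and 133 lower, and 32, 87 and 55. Between the attached states 61 genes were over 16-fold higher, and 1, 13 and 1, with 40 under E1A scaling, and 10 were lower, and 0, 2 and 0, with 16 under E1A scaling. Past 2-fold, genes lower in suspension numbered 2266 and 3792 under E1A scaling, genes higher on re-adhesion 2398 and 1524 without scaling, and genes lower on re-adhesion 2504 and 1555 with normexp. Between the attached states 745 were higher, and 483 without scaling, 349 under E1A scaling, 330 with normexp, 431 among genes well above background on all 3 arrays and 1226 with no filter, while 754 were lower, and 1205, 1917, 187 and 336 under the first 4 of these and 454 with a floor. Less the median of all genes, list medians moved in 3 cases, all with normexp: regulators on re-adhesion from 0.52 to 0.26, sarcomere partners in suspension from 0.46 to 0.17 and smooth muscle partners in suspension from -3.33 to -2.96.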
